A study of Mus musculus with 16 samples.

Results

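Interleukins outside the IL-1 family, the colony-stimulating factors, oncostatin M and interferon gamma were followed together with their receptor chains in the lungs of mice that had inhaled bacterial lipopolysaccharide (LPS). The genes were chosen by symbol alone: every interleukin or interleukin receptor symbol of the array annotation except those of the IL-1 family, plus Csf1, Csf2, Csf3, Csf2ra, Csf2rb, Csf3r, Osm, Osmr, Ifng, Ifngr1 and Ifngr2. They numbered 66 of the 20629 features tested, 33 of them coding for secreted ligands and 33 for receptor chains, and each of the 66 was measured and tested. Il12b, Lif, Csf1r and Il2rg, which belong to the same families, are not analysed here.

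Both groups were male C57/BL6 mice aged 8 weeks. One group inhaled aerosolized LPS over 5 days and its lungs were taken when the last inhalation ended, and the other breathed air alone. Lung RNA was pooled from 3 animals, which gave 4 LPS pools and 4 air pools from 24 mice, and every pool was hybridised against a commercial universal mouse reference RNA on a pair of dye-swapped arrays with 22575 spots each. A level below is log2(lung/reference), averaged over the arrays of a pool, and a difference is the mean of the LPS pools minus that of the air pools with its standard error (SE, n = 4 pools per group unless stated). A gene passed at a Benjamini-Hochberg adjusted p under 0.05 in limma, a linear model fitted across all features.

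Of 16 arrays, 15 were used, since the Cy3-labelled array of air pool 4 had been read from the images of 2 different arrays. Between 97.2% and 99.5% of spots had a positive signal in both channels, and the median net lung signal was 4.28 to 28.2 times the local background. LPS pools 1 and 2 and air pools 3 and 4 were read with version 2.2.3 of the image program, and LPS pools 3 and 4 and air pools 1 and 2 with version 2.2.4, so each of these batches held both groups. In version 2.2.3 the dye-swapped arrays correlated at 0.90 and 0.85 in LPS pools 1 and 2 and 0.82 in air pool 3. In version 2.2.4 the values were 0.42 and 0.60 in LPS pools 3 and 4 and 0.80 and 0.48 in air pools 1 and 2. The values of single pools are thus less sure in most pools of version 2.2.4. Image names carried a week number that separated all LPS arrays from all air arrays, and its part in any difference cannot be told apart from that of the exposure. In the air pools, 7 of 7 lung-defining genes, among them Sftpc, Sftpb and Scgb1a1, stood at or above the 98.0 percentile of lung over reference among all features.

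Most of these cytokines signal through receptors without kinase activity of their own. Ligand binding brings the receptor chains together, the Janus kinases attached to them phosphorylate STAT transcription factors, and SOCS proteins made in response limit the signal. Chains are shared: gp130 serves the IL-6 family, the beta common chain serves IL-3, IL-5 and GM-CSF, and IL-10RB serves IL-10, IL-22 and related ligands, so a ligand and its receptor may be regulated apart. The IL-17 receptors work differently and lead to NF-kB and C/EBP factors. In the lung, GM-CSF maintains alveolar macrophages, G-CSF mobilises neutrophils, IL-17A and IL-22 act on the epithelium, and IL-4 and IL-13 drive mucus and alternative macrophage activation.

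At the end of the inhalations 9 of the 66 genes were higher in LPS lungs, 0 were lower and 57 did not pass. The 9 were the receptor chains Csf2rb, Osmr, Csf3r, Il4ra, Il6st, Il10rb and Il17ra and the ligand genes Csf1 and Il23a. The count is 13.6% of the family, against 5.95% of all features higher, 0.713% lower and 6.67% changed in either direction. The family's median difference was 0.09, against 0.01 over all features. Every pool of the LPS group lay above every air pool for 12 of 65 genes with a value in all pools (18.5%, against 11.3% of all features), and below them for 1 of 65 (1.54%, against 5.44%). Because RNA came from whole lung, a change in the number of cells of a type and a change in RNA per cell cannot be told apart in any of these values.

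**Figure D1:**
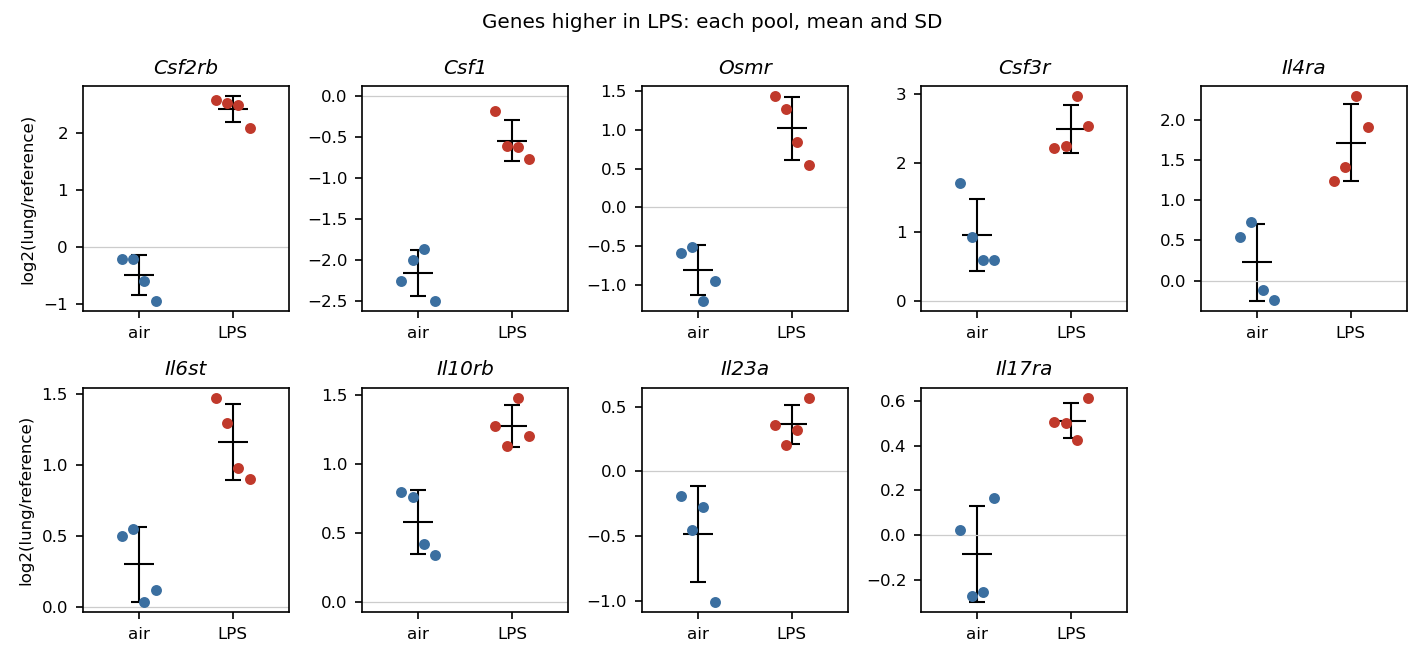
Level of the 9 genes that were higher in LPS, as log2(lung/reference) on the vertical axis of each panel; every point is 1 pool, and the horizontal mark and bar are the mean and SD of 4 pools. The LPS points lie above the air points in each of the 9 panels, with the widest gap for Csf2rb.

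Receptor chains made up most of the rises. Of 33 receptor chains 7 were higher (21.2%) and 0 lower, with a median difference of 0.16. Of 33 ligand genes 2 were higher (6.06%) and 0 lower, with a median of 0.06. The ligand share is near the 5.95% of all features that were higher. The ligand genes gave the dimmer spots: their median net lung signal in air was 3.68 times the local background, against 12.9 times for the receptor chains. The difference between both shares was not tested, nor was the part of signal strength in it.

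Among the colony-stimulating factors, IL-3, IL-5 and their receptors, 3 of 11 genes were higher (5.95% of all features) and 0 lower. The median difference was 0.15. Csf2rb codes for the beta common chain, the signalling subunit of the receptors for GM-CSF, IL-3 and IL-5. Its level was 2.59, 2.53, 2.50 and 2.10 in LPS pools 1 to 4 and -0.22, -0.20, -0.59 and -0.94 in air pools 1 to 4. All LPS pools were far above the highest air pool. The rise was 7.58-fold, or 2.92 ± 0.19 on the log2 scale (limma adjusted p = 3.13e-05); it was 3.33 in the batch of version 2.2.3 and 2.51 in that of version 2.2.4. Mice carry a close paralog, Csf2rb2, which makes an IL-3 specific chain, and the probes may share its signal. Csf2rb2, named here after its value was seen, rose by 1.43 ± 0.31 (adjusted p = 0.0224); the batch values were 1.97 and 0.89.

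The partner chain did not pass. Csf2ra, the GM-CSF-binding alpha chain, was at 0.28, 0.46, 0.22 and -0.09 in the LPS pools and at -0.47, -0.16, -0.23 and -0.14 in the air pools. The groups did not overlap, but LPS pool 4 lay close to air pool 4. The difference was 0.47 ± 0.15 (adjusted p = 0.0974, 95% confidence interval 0.14 to 0.80). The alpha chains of the other receptors of this branch did not pass, with Il3ra at -0.07 ± 0.15 and Il5ra at -0.03 ± 0.19. On 3 of 7 air arrays the Il5ra spot had net lung signal under its background.

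Csf1, the growth and survival factor of macrophages, was at -0.17, -0.60, -0.62 and -0.77 in LPS pools 1 to 4 and at -2.25, -2.0, -1.86 and -2.49 in air pools 1 to 4. The lowest LPS pool stood more than a log2 unit above the highest air pool. Csf1 rose 3.05-fold (1.61 ± 0.18, adjusted p = 6.04e-04); the batch values were 1.79 and 1.43. Il34, which codes for the other ligand of the CSF-1 receptor, differed by -0.23 ± 0.15 (adjusted p = 0.407), and its interval of -0.57 to 0.11 holds no 2-fold change.

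Csf3r, the G-CSF receptor of neutrophils and their precursors, was at 2.22, 2.25, 2.97 and 2.54 in the LPS pools and at 1.70, 0.92, 0.59 and 0.59 in the air pools. Air pool 1 was the highest of the air pools and still below every LPS pool. The gene rose 2.91-fold (1.54 ± 0.26, adjusted p = 0.00698); the batch values were 1.64 and 1.44. The call did not hold in the 4 pools of version 2.2.4 alone (adjusted p = 0.065) or on the Cy3 arrays alone (1.48, adjusted p = 0.126), and the size is weakly fixed, since net lung signal over local background had a median of only 2.83 in air. Its ligand Csf3 was at 0.42, 0.60, 0.20 and 0.14 in LPS and at 0.05, 0.30, -0.09 and 0.49 in air. The pools of both groups overlapped, and the difference was 0.15 ± 0.17 (adjusted p = 0.627, interval -0.22 to 0.52).

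Csf2, the gene of GM-CSF itself, split the LPS pools. Its level was 0.53 and 0.56 in LPS pools 1 and 2 but 2.71 and 2.29 in LPS pools 3 and 4, while air pools 1 to 4 read 0.98, 0.67, 0.45 and 0.24. The first pair lay within the range of the air pools and the second pair above it. With lung in Cy3, net reference signal was 70274, 38009, 8124 and 7403 in LPS pools 1 to 4. In pools 3 and 4 that was near the local background of 5214 and 5148. Net lung signal on these arrays was 61732, 45568, 19569 and 20910. With lung in Cy5, net reference was 29199, 58321, 6619 and 16542, and net lung 53924, 112335, 61934 and 62833. The part of the reference signal in the split was not tested. The difference over all pools was 0.94 ± 0.47 (adjusted p = 0.266), made of 0.20 in version 2.2.3 and 1.68 in version 2.2.4. The difference between the batches passed the limma test (1.48, adjusted p = 0.0242). The remaining growth factors of this branch, Il3 (-0.01 ± 0.14) and Il5 (0.09 ± 0.16, 3 air pools), did not pass, and the Il5 spot was dim, with a signal over background of 1.09 in air.

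Promoter sequences were at hand for some of these genes and are shown for the 3 largest rises among them. RefSeq windows of assembly GRCm38.p6, running from 250 bases before to 50 bases after an annotated start, were matched by symbol for 48 of the 66 genes and for 5 of the 9 that rose (Csf1, Osmr, Csf3r, Il4ra and Il6st). They were searched on both strands for 4 motifs: the kappaB form (GGG, any 5 bases, CC), the STAT form TTCNNNGAA, the AP-1 form TGANTCA and the C/EBP form TTNCNNAA. Capitals mark kappaB and AP-1 matches on either strand, overlapping matches run together, and each window is written 5′ to 3′ on the strand of its gene. They are Csf1 at chr3:107760420-107760719 (minus strand), Osmr at chr15:6874264-6874563 (minus strand) and Csf3r at chr4:126024409-126024708 (plus strand).
Csf1: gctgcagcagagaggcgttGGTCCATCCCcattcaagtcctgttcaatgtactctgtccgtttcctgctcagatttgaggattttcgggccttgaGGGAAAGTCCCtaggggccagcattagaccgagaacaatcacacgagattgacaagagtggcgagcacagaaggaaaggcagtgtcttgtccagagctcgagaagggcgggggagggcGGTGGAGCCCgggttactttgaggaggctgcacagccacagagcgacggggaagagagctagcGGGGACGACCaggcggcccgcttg
Osmr: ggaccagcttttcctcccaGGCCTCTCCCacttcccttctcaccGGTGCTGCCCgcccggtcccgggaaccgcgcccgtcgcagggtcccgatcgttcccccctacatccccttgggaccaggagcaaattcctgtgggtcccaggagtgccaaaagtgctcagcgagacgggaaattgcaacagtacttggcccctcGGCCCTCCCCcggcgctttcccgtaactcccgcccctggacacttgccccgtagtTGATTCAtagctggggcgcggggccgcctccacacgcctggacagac
Csf3r: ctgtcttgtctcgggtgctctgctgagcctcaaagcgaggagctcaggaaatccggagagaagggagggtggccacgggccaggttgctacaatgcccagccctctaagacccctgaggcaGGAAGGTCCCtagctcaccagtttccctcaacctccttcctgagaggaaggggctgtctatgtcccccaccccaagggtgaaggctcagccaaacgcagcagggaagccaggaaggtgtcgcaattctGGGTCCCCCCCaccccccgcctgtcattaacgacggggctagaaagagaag
The Csf1 window held 5 kappaB matches, those of Osmr and Csf3r 3 each, and the Osmr window also the AP-1 match TGATTCA.

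Such matches are frequent and describe letters only. Some genes have more than 1 annotated start, so the 48 genes gave 54 windows, 5 of them of risen genes. The kappaB form was found in 5 of the 5 windows of risen genes and in 36 of the 54 windows of the family, but also in 50.8% of all 32851 windows. AP-1 was found in 1 of 5, 11 of 54 and 7.81%. For the STAT form the counts were 0 of 5, 7 of 54 and 8.30%, and for the C/EBP form 0 of 5, 23 of 54 and 40.7%.

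In the IL-6 family, whose receptors share gp130, 2 of 8 genes were higher (5.95% of all features) and 0 lower. The median difference was 0.33. Osmr codes for the chain that joins gp130 to make the oncostatin M receptor, and its promoter is the one with the AP-1 match above. Its level was 1.44, 1.27, 0.85 and 0.54 in LPS pools 1 to 4 and -0.59, -0.51, -1.21 and -0.95 in air pools 1 to 4. The groups were apart by a full log2 unit. Osmr rose 3.58-fold (1.84 ± 0.22, adjusted p = 0.0010), by 2.43 in version 2.2.3 and by 1.25 in version 2.2.4, and that difference between the batches passed as well (-1.18, adjusted p = 0.0278).

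Il6st, the gene of gp130, was at 1.47, 1.29, 0.97 and 0.90 in the LPS pools and at 0.50, 0.55, 0.03 and 0.12 in the air pools. LPS pools 1 and 2 were the highest, and the lowest LPS pool stayed above all air pools. It rose 1.81-fold (0.86 ± 0.18, adjusted p = 0.0192). A second Il6st probe gave 1.03 ± 0.16 (adjusted p = 0.00374). The difference was 1.31 in version 2.2.3 and 0.41 in version 2.2.4, unequal by the limma test between batches (-0.90, adjusted p = 0.0315). The call was lost without LPS pool 1 (0.76), LPS pool 2 (0.81) or air pool 4 (0.80), with an adjusted p of at most 0.0621. It was also lost with all 16 arrays (0.78), with median centring of the arrays (0.84), in version 2.2.4 alone and with either dye alone (0.84 and 0.79).

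The ligands of this branch gave smaller values. Osm, whose product binds Osmr with gp130, was at 0.28, 0.43, 0.22 and -0.03 in LPS and at -0.58, -0.37, -0.05 and -0.32 in air. The groups did not overlap, by a margin between LPS pool 4 and air pool 3 that was small. The difference was 0.56 ± 0.15 (adjusted p = 0.0588, or 0.02 once blocked by batch). Il6 was at 0.71, 0.88, 0.10 and -0.03 in LPS and at 0.04, -0.17, -0.62 and -0.31 in air, so that LPS pools 3 and 4 lay within or next to the air range. Its difference of 0.68 ± 0.23 did not pass (adjusted p = 0.111), and it came to 1.25 in version 2.2.3 and 0.10 in version 2.2.4, a difference between batches of -1.15 (adjusted p = 0.0287). Il6ra, the binding chain for IL-6, was at 0.05 ± 0.16 (interval -0.31 to 0.42), Il11 at 0.06 ± 0.14, Il31 at -0.25 ± 0.17 and Il31ra at 0.09 ± 0.14.

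**Figure D2:**
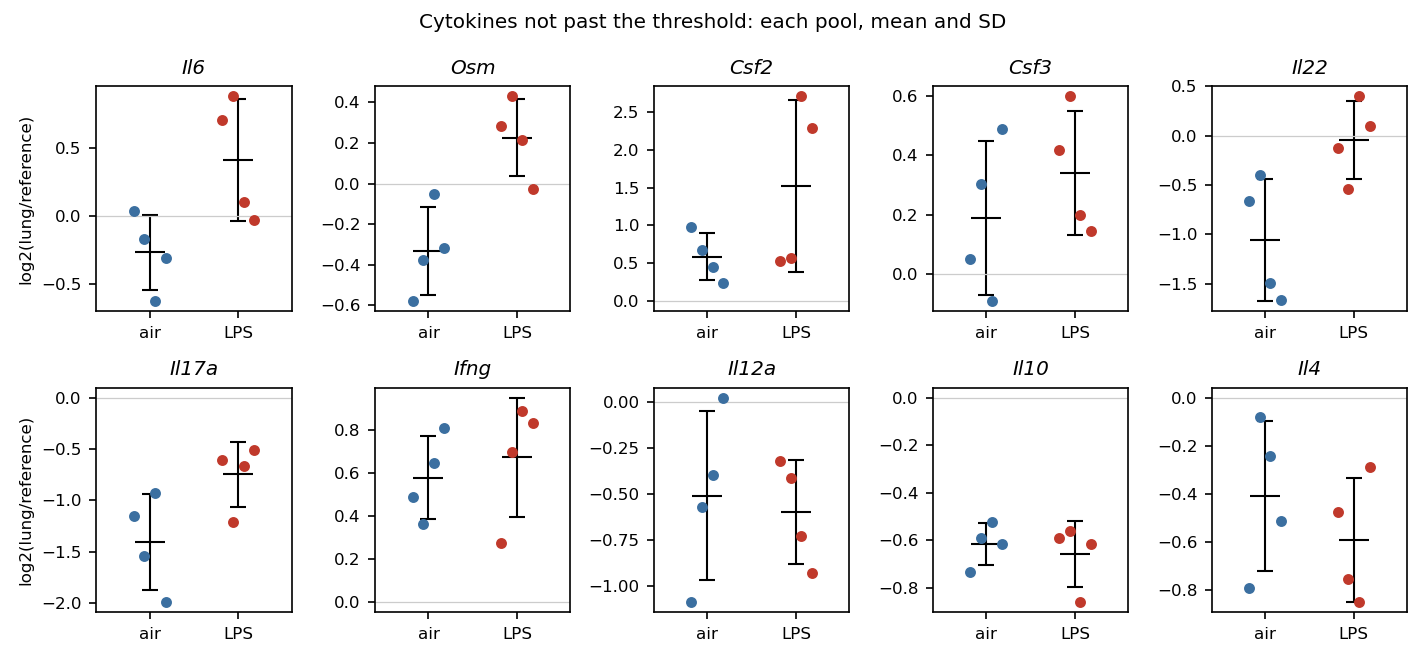
Level of 10 ligand genes that did not pass, as log2(lung/reference) by pool (points) with the mean and SD of 4 pools; the genes were named whatever their values. Csf2 shows a pair of LPS pools near 2.29 to 2.71 and a pair among the air pools, and the panels of Csf3, Ifng, Il12a, Il10 and Il4 overlap.

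In the branch of IL-12, IL-23, IL-27 and interferon gamma, 1 of 10 genes was higher (5.95% of all features) and 0 lower. The median difference was 0.17. Il23a codes for p19, the subunit particular to IL-23, a cytokine that sustains IL-17 producing lymphocytes. It was at 0.36, 0.21, 0.32 and 0.57 in the LPS pools and at -0.19, -0.45, -0.28 and -1.01 in the air pools. Air pool 4 was the lowest by far, and the groups were apart. The values of air pools 2 and 4, the lowest of the air pools, rest on the Cy5 array alone. Cy5 read lower than Cy3 in air pool 1 (-0.29 against -0.08) and air pool 3 (-0.58 against 0.03). In the LPS pools the sign of that gap varied. On Cy3 arrays LPS pool 3 (0.0306) did not lie above air pool 3 (0.0312). Il23a rose 1.79-fold (0.84 ± 0.19, adjusted p = 0.0248); the batch values were 0.92 and 0.76. The spot was dim: 2 of 7 air arrays had net lung signal under the local background, and the median ratio of signal to background was 1.18 in air and 3.02 in LPS. The call was lost without LPS pool 1 (0.84), 3 (0.86) or 4 (0.77), with median centring (1.33, adjusted p = 0.154) and in version 2.2.4 alone (adjusted p = 0.057). A fit with the pool number as a replicate block lost it too. Too few air pools had a value for a test on the Cy3 arrays alone or with spots below the local background left out.

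Il23r, the receptor chain of IL-23, differed by 0.57 ± 0.17 (adjusted p = 0.0777, or 0.0344 once blocked by batch). Il27, the p28 subunit of IL-27, was at 0.23, 0.10, -0.50 and -0.28 in LPS and at -0.80, -0.74, -0.77 and -0.52 in air. All LPS pools were higher, LPS pool 3 only just above air pool 4. Its difference was 0.60 ± 0.17 (adjusted p = 0.0722, or 0.0214 once blocked by batch). Ebi3, which codes for the partner subunit of p28 and is not a gene of the family's symbols, rose by 1.32 ± 0.13 (adjusted p = 3.20e-04). Il27ra, the IL-27 receptor chain, was measured by 10 probes, whose differences ran from -0.15 to 0.14 around a median of 0.09. Between these 10 probes the SD within an array was 0.0331 to 0.255, a measure of how far spots of 1 gene vary.

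Interferon gamma, the main activator of macrophages from T and NK cells, showed no shift that passed. Ifng was at 0.27, 0.70, 0.89 and 0.83 in LPS and at 0.49, 0.36, 0.65 and 0.81 in air, with overlapping pools. The difference was 0.09 ± 0.17 (adjusted p = 0.778, interval -0.28 to 0.47), at a signal over background of 2.54 in air. Its receptor chains were brightly measured, Ifngr1 at -0.08 ± 0.23 (interval -0.58 to 0.42) and Ifngr2 at 0.25 ± 0.19 (interval -0.17 to 0.67). Il12a, the p35 subunit of IL-12, differed by -0.09 ± 0.23 (adjusted p = 0.853), and the receptor chains Il12rb1 and Il12rb2 by -0.03 ± 0.21 and 0.30 ± 0.15.

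Among the cytokines of the common gamma chain, with IL-4 and IL-13, the median difference was 0.06. Of 16 genes 1 was higher, near the 5.95% of all features, and 0 were lower. That gene was Il4ra, the signalling chain common to the IL-4 and IL-13 receptors. It stood at 1.24, 1.41, 2.29 and 1.91 in LPS pools 1 to 4 and at 0.54, 0.73, -0.12 and -0.24 in air pools 1 to 4. LPS pools 3 and 4 were the highest, air pools 3 and 4 the lowest, and the groups did not overlap. Il4ra rose 2.80-fold (1.48 ± 0.28, adjusted p = 0.0119); the batch values were 1.50 and 1.47. On the Cy3 arrays alone the call was lost (1.46, adjusted p = 0.096). It was also lost with the pool number as a replicate block.

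Neither ligand of that receptor passed. Il4 was at -0.48, -0.76, -0.85 and -0.29 in LPS and at -0.79, -0.08, -0.24 and -0.51 in air, and Il13 at -0.39, -0.26, -0.67 and -0.64 in LPS and at -0.63, -0.54, 0.05 and -0.59 in air. Both genes had overlapping groups. Their differences were -0.19 ± 0.19 for Il4 (interval -0.60 to 0.23) and -0.06 ± 0.18 for Il13 (interval -0.46 to 0.34), so a 2-fold rise lies outside both intervals. Il13ra1, the partner chain of Il4ra, was at 0.36, 0.67, 1.51 and 1.23 in LPS and at 0.14, 0.21, 0.43 and -0.09 in air. LPS pool 1 fell among the air pools, and the difference of 0.77 ± 0.24 did not pass (adjusted p = 0.0905, or 0.0372 once blocked by batch). The decoy receptor Il13ra2 was at -0.13 ± 0.17.

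Lymphocyte growth cytokines and their receptors did not pass. Il15, which supports NK and memory T cells, differed by 0.72 ± 0.29 (adjusted p = 0.176, or 0.0422 once blocked by batch) and the IL-7 receptor Il7r by 0.49 ± 0.18 (adjusted p = 0.151). Il7 gave 0.47 ± 0.36, with an interval of -0.32 to 1.26 that reaches a 2-fold rise. Il2 (0.01 ± 0.14), Il9 (-0.06 ± 0.19), Il21r (0.02 ± 0.27), Il2rb (0.10 ± 0.12) and Il15ra (0.16 ± 0.16) showed small differences. The most negative difference of the family was that of Il2ra, the high-affinity IL-2 receptor chain, at -0.39 ± 0.19 (adjusted p = 0.255), but its other probe gave -0.01.

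Of the IL-10 family, 1 of 9 genes was higher (5.95% of all features) and 0 lower, and the median difference was 0.25. Il10rb, the chain that IL-10, IL-22 and the lambda interferons share, was at 1.28, 1.13, 1.48 and 1.20 in LPS pools 1 to 4 and at 0.79, 0.76, 0.42 and 0.34 in air pools 1 to 4. Both groups were tight and did not overlap. It rose 1.62-fold (0.69 ± 0.15, adjusted p = 0.0235), by 0.82 and 0.56 in the batches, and its other probe gave 0.72 ± 0.25 (adjusted p = 0.119). The call was lost without LPS pool 1 (0.69), LPS pool 3 (0.62), air pool 3 (0.64) or air pool 4 (0.61), with all 16 arrays (0.64), with median centring (0.74), in version 2.2.4 alone and on the Cy3 arrays alone (0.58). With the pool number as a replicate block it was lost as well.

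The anti-inflammatory cytokine IL-10 gave no detectable change in its transcript. Il10 was at -0.59, -0.56, -0.86 and -0.62 in LPS and at -0.73, -0.59, -0.52 and -0.61 in air, with overlapping groups. The difference was -0.04 ± 0.12 (adjusted p = 0.87), and the interval of -0.32 to 0.23 holds no 2-fold change in the measured ratio. Signal over background was 3.68 in air, so the interval is a weaker bound on the RNA itself. Il10ra, its binding chain, differed by 0.42 ± 0.19 (adjusted p = 0.23).

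Il22, which acts on epithelial repair and antimicrobial defence, gave the largest difference among the genes that did not pass. It was at -0.12, -0.54, 0.40 and 0.09 in LPS and at -0.67, -0.40, -1.49 and -1.66 in air. Air pools 3 and 4 were the lowest, while LPS pool 2 lay below air pool 2. The difference was 1.01 ± 0.30 (adjusted p = 0.0768, or 0.00381 once blocked by batch), at a signal over background of 1.46 in air. Il20ra, a receptor chain for IL-19, IL-20 and IL-24, differed by 0.56 ± 0.20 (adjusted p = 0.124, or 0.0121 once blocked by batch). The ligands Il19 (-0.30 ± 0.18), Il20 (0.25 ± 0.18) and Il24 (0.08 ± 0.19) did not pass, nor did the receptor chain Il20rb (0.14 ± 0.13).

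In the IL-17 family 1 of 11 genes was higher (5.95% of all features) and 0 lower, and the median difference was -0.09. Il17ra, the chain that receives IL-17A, IL-17F, IL-17C and IL-25, was at 0.51, 0.50, 0.43 and 0.61 in the LPS pools and at 0.02, -0.28, -0.25 and 0.17 in the air pools. The LPS pools lay close together and above all air pools. The rise was 1.51-fold (0.60 ± 0.14, adjusted p = 0.0297); the batch values were 0.55 and 0.65. The call depended on single pools: it was lost without LPS pool 1 (0.60), 2 (0.60), 3 (0.63) or 4 (0.56), without air pool 2 (0.53) or 3 (0.54), with median centring (0.62), within each batch alone and on the Cy5 arrays alone (0.46). A block by pool number lost the call too.

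Il17a, the ligand that calls neutrophils through epithelial chemokines, was at -0.61, -1.20, -0.67 and -0.51 in LPS and at -1.15, -1.54, -0.93 and -1.99 in air. LPS pool 2 lay within the air range. The difference was 0.65 ± 0.24 (adjusted p = 0.142), and the spot was dim, with a signal over background of 1.56 in air. Il17d, a member of this family with a little known receptor, was the gene with all LPS pools below all air pools, at 0.13, 0.13, -0.0030 and 0.15 against 0.43, 0.21, 0.43 and 0.34. Its difference of -0.25 ± 0.12 did not pass (adjusted p = 0.24). The others were spread on both sides of 0, from Il17b (-0.28 ± 0.19) and Il25 (-0.17 ± 0.22) over Il17f (-0.12 ± 0.19), Il17c (-0.11 ± 0.34), Il17re (-0.09 ± 0.21) and Il17rc (-0.09 ± 0.12) to Il17rb (0.08 ± 0.15) and Il17rd (0.30 ± 0.14). Il16, a lymphocyte attractant outside these families, was at -0.01 ± 0.11.

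**Figure D3:**
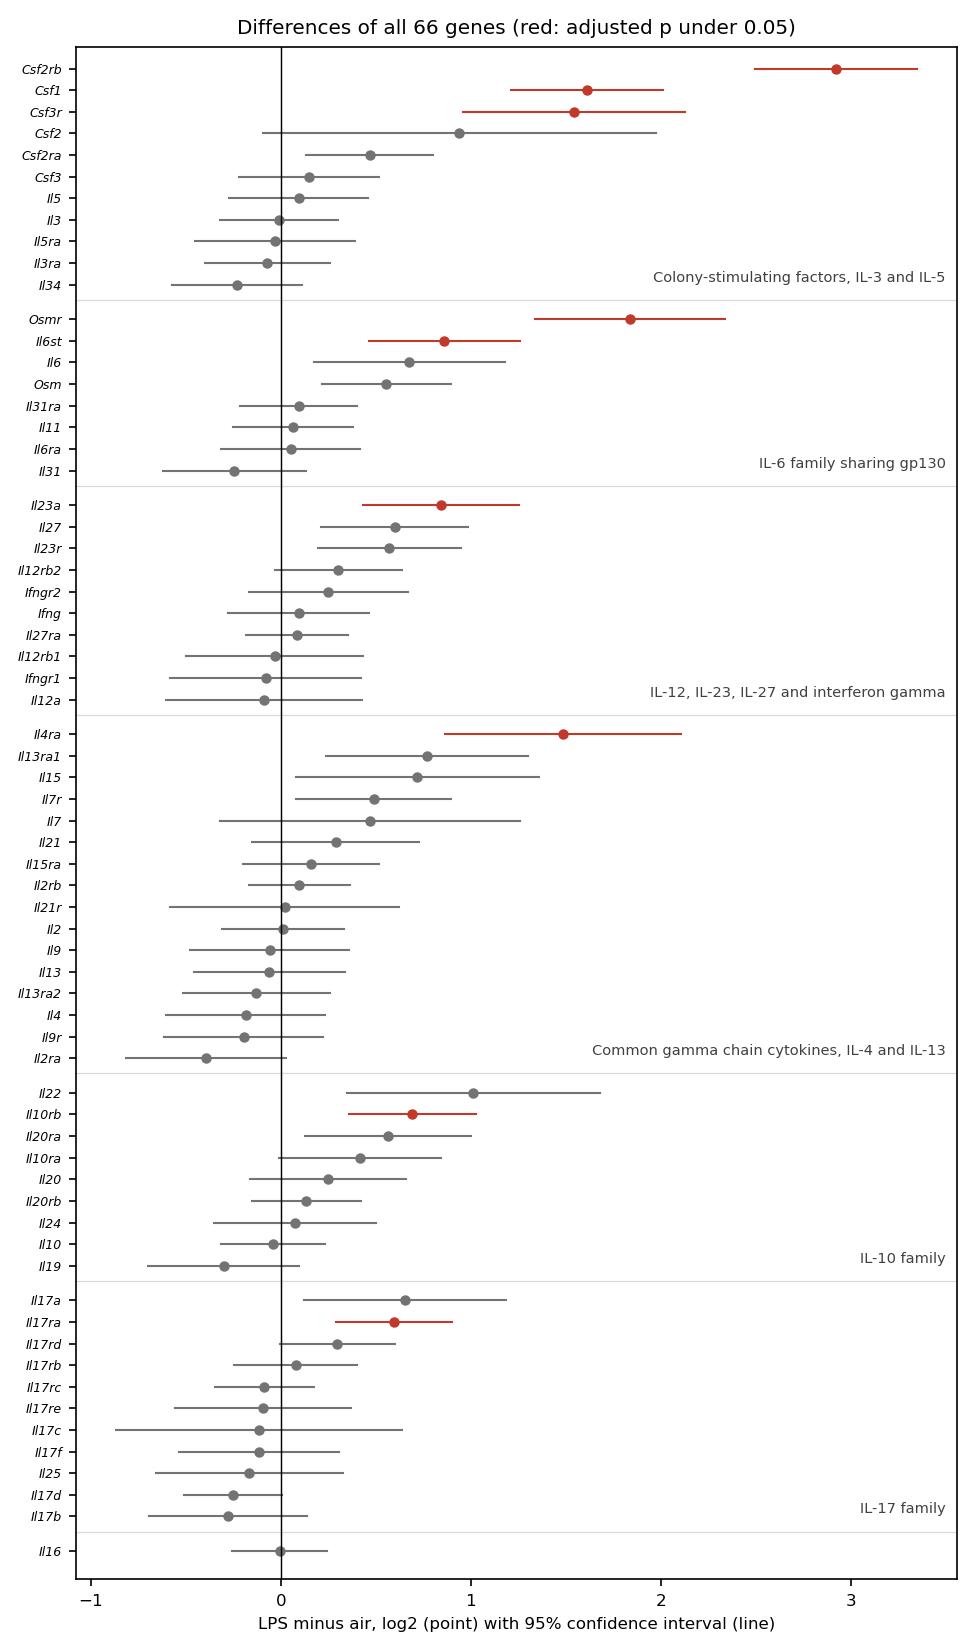
Difference between LPS and air for the 66 genes, grouped by family, on the log2 scale (horizontal axis); points are differences, lines 95% confidence intervals, and red marks an adjusted p under 0.05. The 9 red points lie to the right of 0, led by Csf2rb at 2.92, and no gene passed to the left.

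For the 57 genes that did not pass, the intervals bound the difference in the measured ratio. The 95% interval held no 2-fold change in either direction for 49 of them, reached a 2-fold rise for 8 (Il22, Il13ra1, Il6, Il20ra, Il17a, Il15, Csf2 and Il7) and reached a 2-fold fall for 0. Unadjusted p-values under 0.05 were found for 11 of the 57, each of them with a positive difference. Such values are frequent in these data. With the called genes included, 20 of the 66 had an unadjusted limma p under 0.05, and 9 of these passed. Over all features it was 4636 of 20629, and 1375 of these passed. In all, 33 of the 57 differences were positive and 24 negative. Low signal limits 17 of the 66 genes, whose median net lung signal in air was under 3 times the local background, and Csf3r and Il23a are the 2 of these that passed. Il3, Il5, Il5ra, Il12a, Il12rb2, Il20, Il21, Il24, Ifng and Csf3 are dim in this way and belong to the 49. For them a narrow interval does not exclude a 2-fold change in RNA.

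Every gene that rose also did so in a fit blocked by batch, and more genes joined them. That fit gave 17 higher and 0 lower genes in the family (25.8%), against 8.72% of all features higher and 2.26% lower. The 8 additional genes were Osm, Il27, Il22, Il23r, Il13ra1, Csf2ra (adjusted p = 0.0496), Il20ra and Il15. A difference between the batches passed for 7 of 66 genes (10.6%), close to the 8.69% of all features. They were Osmr, Il6st and Il6, larger in version 2.2.3, Csf2, larger in version 2.2.4, and Il21 (0.79 and -0.21), Il17f (-0.57 and 0.34) and Il17re (0.43 and -0.62), which had opposite signs. Of these the Il21 spot was dim, under its background on 2 of 7 air and 3 of 8 LPS arrays, so its batch values are weakly fixed. Among air pools the batch and the week number coincide, so these cannot be told apart in such a difference.

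**Figure D4:**
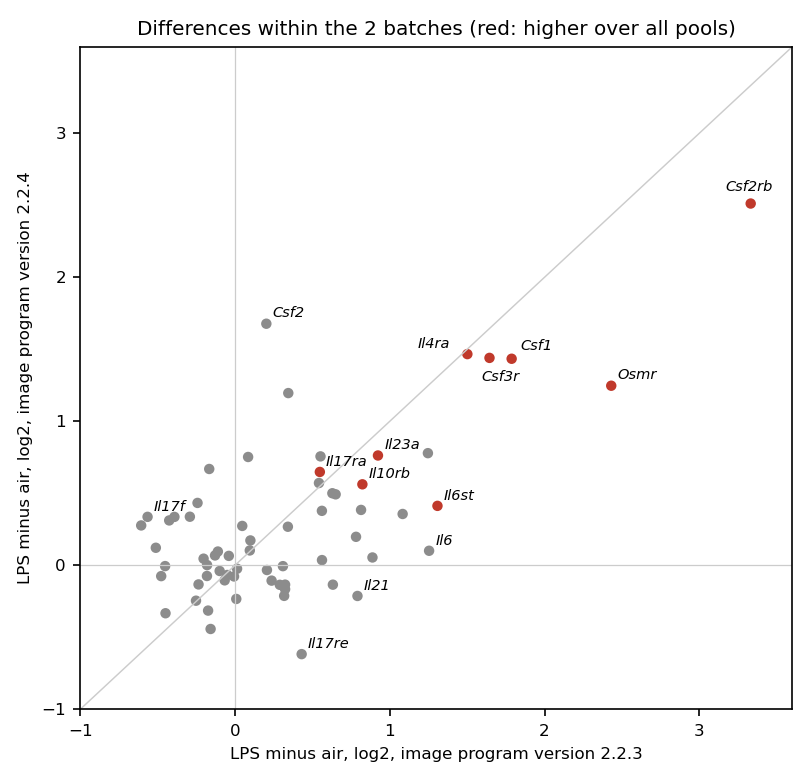
Difference between LPS and air within the pools read with version 2.2.3 (horizontal axis) and with version 2.2.4 (vertical axis), log2, 1 point per gene (Il5, which lacks air pool 4, is left out) with the line of equality; red marks the 9 genes higher over all pools, and genes whose batches differed by the test are named too. The 9 red points are positive in both batches, while Csf2 lies far above the line and Il6 far below it.

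Downstream of the receptors, Janus kinases, STATs and their inhibitors were described from a list. Of 22 measured genes 6 were higher and 0 lower, and the median difference was 0.47, against 0.01 for all features, of which 5.95% were higher. Blocked by batch, 8 were higher, against 8.72% of all features. Socs3, the inhibitor that binds gp130 and the G-CSF receptor, rose 4.41-fold (2.14 ± 0.19, adjusted p = 1.46e-04). Jak2, the kinase of the beta common chain, rose by 1.65 ± 0.16, Stat2, a partner of type I interferon signalling, by 1.52 ± 0.17, and Jak1, a kinase of gp130 and of the IL-4 and IL-10 receptors, by 1.05 ± 0.20. The others were Socs5 (0.79 ± 0.17) and Stat6, the STAT of the IL-4 receptor (0.55 ± 0.14, adjusted p = 0.0407). Stat3, the main STAT of gp130, differed by 0.60 ± 0.16 (adjusted p = 0.0542, or 0.0416 once blocked by batch). Of 17 measured cytokines and receptors related to the family, Ebi3 and the interferon receptor chain Ifnar2 (0.66 ± 0.13, adjusted p = 0.0151) were higher and 0 were lower. Flt3, Ifnar1 and Epor had the next smallest p, at -0.45 ± 0.17, 0.41 ± 0.16 and -0.49 ± 0.22, and did not pass. Stat6 and Stat3 were named here after their values were seen.

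**Figure D5:**
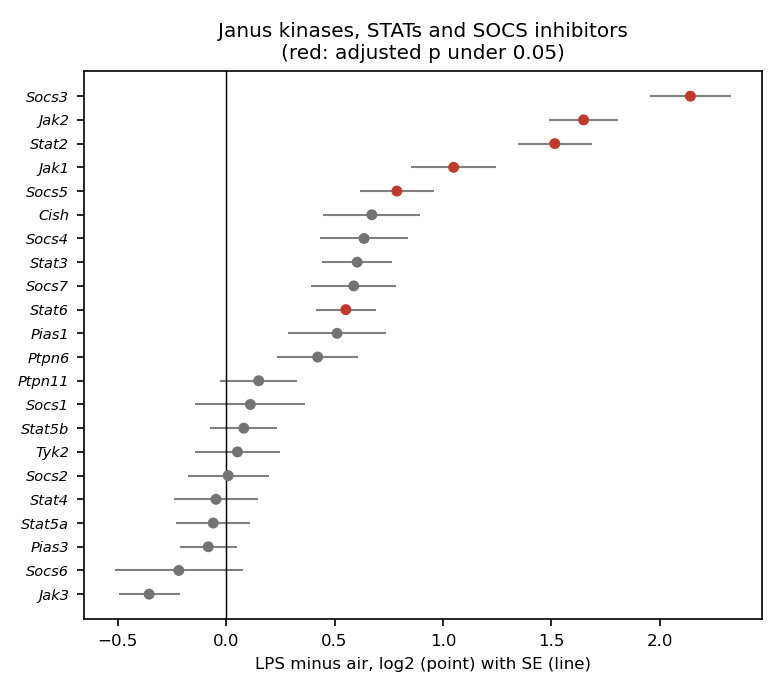
Difference between LPS and air for 22 genes of Janus kinases, STATs and inhibitors, log2 (horizontal axis), with the SE as a line; red marks an adjusted p under 0.05. Socs3 at 2.14 and Jak2 at 1.65 lead the 6 red points, all of them on the positive side.

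Some neutrophil and macrophage markers rose as well, and their part in the differences was not tested. Of 12 measured neutrophil markers 7 were higher and 0 lower, against 5.95% of all features higher. The smallest p belonged to Clec4d (3.28 ± 0.28), Clec4e (2.86 ± 0.26) and Ltf (1.62 ± 0.25). The 5 markers that did not pass were named after their values were seen. They were Cxcr2 (0.93 ± 0.31, limma adjusted p = 0.106, or 0.0251 once blocked by batch), Camp (0.51 ± 0.68), Mmp8 (0.27 ± 0.38), Ngp (-0.13 ± 0.15) and Mmp9 (-0.26 ± 0.25). On 4 of 7 air arrays Clec4e had net lung signal under its background, so its size is weakly fixed. The mean level of the 12 neutrophil markers per pool ran from 1.34 to 2.44 in LPS and from -0.08 to 0.78 in air. Of 12 macrophage and monocyte markers 6 were higher and 0 lower, with the smallest p for Mpeg1 (1.68 ± 0.15), Cybb (1.50 ± 0.13) and Fcgr1 (1.25 ± 0.13), with mean levels of 1.91 to 2.31 in LPS and 0.58 to 1.37 in air. Csf2rb, Csf3r, Il4ra and Il10rb are known to be expressed in such cells, but the cell source was not measured for any of the risen genes.

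Among markers of lymphocytes and of mast cells, basophils and eosinophils 1 passed over all pools without a block. Of all features 5.95% were higher and 0.713% lower, or 8.72% and 2.26% once blocked by batch. An unadjusted limma p under 0.05 was found for 4636 of 20629 features. In limma 0 of 17 markers of T and NK cells passed, and 3 had an unadjusted p under 0.05. The smallest p-values were those of Trat1 (-0.51 ± 0.16), Cd2 (-0.36 ± 0.14) and Cd8a (0.35 ± 0.15), and mean levels were 0.07 to 0.16 in LPS and -0.01 to 0.21 in air. Blocked by batch, Trat1 was lower (adjusted p = 0.0201) and the other 16 did not pass. Of 9 B cell markers Fcer2a was higher (1.03 ± 0.16) and 0 were lower, with Blk (-0.47 ± 0.14) and Cd79b (-0.57 ± 0.19) not passing. Blocked by batch, both were lower (adjusted p = 0.0436 and 0.0257). The mean B cell levels were -0.22 to 0.11 in LPS and -0.10 to -0.0046 in air. Of 11 markers of mast cells, basophils and eosinophils 0 passed in limma and 2 had an unadjusted p under 0.05. Prg2 was at -0.39 ± 0.13, Tpsb2 (under its background on 2 of 7 air arrays) at 0.72 ± 0.27 and Cma1 at -1.0 ± 0.54, and the mean levels were -0.16 to -0.06 in LPS and -0.12 to 0.18 in air.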

How the data were processed

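Lung RNA of 8 pools was compared on 16 two-colour arrays. The deposited intensity values were, per the file headers, integrated spot intensities made with TIGR Spotfinder 2.2.3 or 2.2.4, with the local background already subtracted and no normalisation. A factor per spot (SF), treated as a score, is also deposited, without a definition, and its spots were kept. The authors' deposited value table holds log2 ratios, with the air pool 4 Cy3 column on a log10 scale (slope 0.297 against log2). Set against the spot ratios, its direction was lung over reference. Its normalisation and centring stay unknown. Its medians with lung in Cy5 were 0.059, 0.086, 0.0889 and 0.0782 in air and -0.0448, -0.0355, 0.0471 and 0.0342 in LPS; with lung in Cy3 they were -0.0186, -0.0958, 0.0514 and 0.0033 in air and -0.0529, 0.0125, -0.136 and -0.129 in LPS.

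With R 4.3.3 and limma 3.58.1, spots at 0 or below were treated as missing, ratios were normalised by loess within each array (span 0.3), turned to lung over reference and averaged per pool. Features with at least 3 pools per group were tested by lmFit and eBayes, two-sided. The brightest probe represented a gene. In air pool 4, measured in Cy5 alone, a dye effect does not cancel. The labels call the pools separate groups of 3 animals. The fit was tested on simulated data.

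To name the spots, the annotation's numbers had to be laid over the array of 215 by 105 positions, which was settled from the values: of 8 layouts the one used gave r = 0.523 between the probes of a gene in air, the other 7 at most 0.0701. The annotation names 1 gene for 18218 probes, several for 16 and none for 4341. Precision is limited by how many pools there are.

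The genes, the gene lists and the rule for naming were chosen with earlier results of these data known. The rule named every gene of the family past the threshold, 27 family genes whatever their values, up to 5 genes of each pathway list and up to 3 of each marker list with the smallest p. The alternatives were other arrays, scalings, spot filters, blocks, batches, dyes, probes and the deposited value table, and leaving out each pool.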

Additional observations from a re-analysis of the deposited data

Results flagged for a closer look

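In 7 of 131 groups of 4 pools 1 pool stood far from the other 3, by a gap that chance gives in about 1 in 20 groups. The count is close to that rate, so the cases below are described and not read as a result. None of the 7 genes passed the threshold in limma, and the cause was not tested. Air pool 3 was the outlying pool 5 times. Its level was 0.709 for Il25, where the other air pools lay between -0.11 and -0.08, and without it the difference was 0.03. For Il13 it was 0.0473, against -0.63 to -0.54 in the others, and without it the difference was 0.10. It read -0.148 for Il19, against 0.43 to 0.54 (difference -0.46 without it), and -0.0336 for Il31ra, against 0.11 to 0.12 (0.06 without it). For Ifngr2 the value was 0.401, against -0.18 to -0.09, and the difference without it was 0.39.

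Among the LPS pools, pool 3 read -0.0030 for Il17d, where the others lay between 0.13 and 0.15, and without it the difference was -0.21. LPS pool 1 read 0.365 for Il5, against 0.12 to 0.16 in the others, and without it the difference was 0.04.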

How the results depend on the processing

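Under 24 alternatives, 8 of which left out 1 pool, 0 genes of the family were lower in each, and 0 results of called genes changed sign. The count of higher genes, 9 as reported, was 1 (Csf2rb) without normalization within arrays (which moved the median of all features to -0.55), 5 with the pool number as a replicate block, 17 with the image program version as a block, 19 in version 2.2.3 alone, 14 with arrays as values with dye and a random pool block, and 4 on the Cy3 arrays alone. Without 1 pool it was 6 to 11. The count of all features changed, 1375 as reported, was 501 with all 16 arrays, 735 with median centring, 130 without normalization, 857 with the pool number block, 2265 with the version block, 4707 in version 2.2.3 alone and 416 on the Cy3 arrays, and 711 to 1262 without 1 pool. Of the 9 genes, 7 were still called with all 16 arrays, 5 with median centring and 9 with the deposited value table. The cause of these changes was not tested.

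The pool numbers were not used to pair the pools in the main fit. The deviations of same-numbered pools correlated at -0.04, -0.26, -0.05 and -0.25. Same-numbered pools were read with different versions of the image program, so these values cannot show whether the pools were paired. Over single genes, 46 results dropped under the threshold, 37 passed it newly and 43 uncalled genes changed sign in at least 1 alternative. Dim spots limit 9 genes whose net lung signal was under the background on at least 1 air array.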
